A study of Mus musculus with 15 samples.

Results

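Expression of 9 genes that break down fatty acids in mitochondria or handle ketone bodies was followed in the RPE, the retinal pigment epithelium that lies against the outer segments of the photoreceptors. The genes are Cpt1a, Cpt2, Acadl, Acadm, Acadvl, Hadha, Hadhb, Bdh1 and Ppara. They were taken by symbol from a table of 46078 genes, and all 9 of the 9 were present, passed the low-count filter in every comparison and were tested. RNA was taken starting 2 hours after light onset from female mice at postnatal day 14. The 15 libraries form 4 groups: 4 Mertk WT, 4 Mertk KO, 4 Bai1 Tg neg and 3 Bai1 Tg pos. Both Bai1 groups carry wild-type Mertk, and the strain label of every library is a mixture of c57Bl/6J and the line B6;129-Mertktm1Grl/J, so the control animals share the mixed background. The promoter of the Bai1 transgene, the cells in which Mertk is lost and the number of animals per library are not stated in the sources used here. Nothing says that the libraries of a group come from separate animals, so p-values cover only the spread seen from library to library, part of which can be technical.

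Long-chain fatty acids enter mitochondria as carnitine esters, made by Cpt1 enzymes on the outer membrane and turned back into acyl-CoA by Cpt2 inside. Each turn of beta-oxidation then begins with an acyl-CoA dehydrogenase chosen by chain length, and for long chains continues on the trifunctional protein, built of Hadha and Hadhb. Its product, acetyl-CoA, can be turned into ketone bodies, the last step being catalysed by Bdh1, and Ppara is a fatty-acid-activated nuclear receptor that controls many of these genes. The RPE engulfs shed photoreceptor outer segments, which are rich in lipid, through the receptor tyrosine kinase Mertk, and it is known to oxidise their fatty acids and release beta-hydroxybutyrate towards the retina. The comparison of Mertk KO with Mertk WT thus asks whether these transcripts move when the receptor is disrupted.

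None of the 9 genes passed the test for a difference between Mertk KO and Mertk WT. In edgeR's quasi-likelihood test, adjusted p-values ran from 0.914 to 0.981, and 0 of 9 genes passed 0.05 where 0.223% of the 13447 genes tested did. At an unadjusted p under 0.05 the count was also 0 of 9, against 5.58% of all genes, and DESeq2 called 0 of 9 as well. The 4 KO libraries overlapped the 4 WT libraries for every one of the 9 genes. Estimated changes lay between a log2 fold change of -0.18 for Hadhb and 0.050 for Bdh1, 4 of them above 0 and 5 below. The 95% interval lay within 1.25-fold either way for 7 of 9 genes, against 29.8% of all genes, and within 1.5-fold for 9 of 9, against 63.5%. Changes beyond these bounds lie outside the intervals, and smaller ones lie within them. The shares over all genes include genes with far fewer counts than the 9 and were not matched for counts.

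Total counts were 9591129 to 20024507 per library, which put 165 to 9825 counts on each of the 9 genes in each library. The labels were checked on the targeted genes. Mertk stood at 155 to 194 CPM (counts scaled to library size) in the 4 KO libraries and between 219 and 259 CPM in the other 11, so its RNA was lower but present in KO. Adgrb1, the gene of Bai1, reached 167 to 170 CPM in Bai1 Tg pos and no more than 0.143 CPM in replicates 1 to 3 of Bai1 Tg neg, but 143 CPM in the library labelled Bai1 Tg neg 4. For Bai1 Tg pos against Bai1 Tg neg, the estimate of each of the 9 genes is therefore given with and without that library. Other results of the Bai1 groups include it unless stated. As for the tissue label, 16 RPE markers, led by Ttr and Rgr, summed to between 66076 and 76314 CPM in all libraries. Ttr alone gave 20728 to 26464 CPM and Rgr 11048 to 14557 CPM. Of the 16 RPE markers, 15 had counts in every library, while Best1 was at 0 to 1.81 CPM. Rod photoreceptor RNA was also present: 20 of 21 rod markers, among them Rom1, had counts in every library. Their summed level was 1287 to 4387 CPM in Mertk WT, 1364 to 2068 in Mertk KO, 467 to 755 in Bai1 Tg neg and 563 to 1166 in Bai1 Tg pos. In bulk libraries of this kind, fewer cells of a type and less RNA per cell cannot be told apart.

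**Figure D1:**
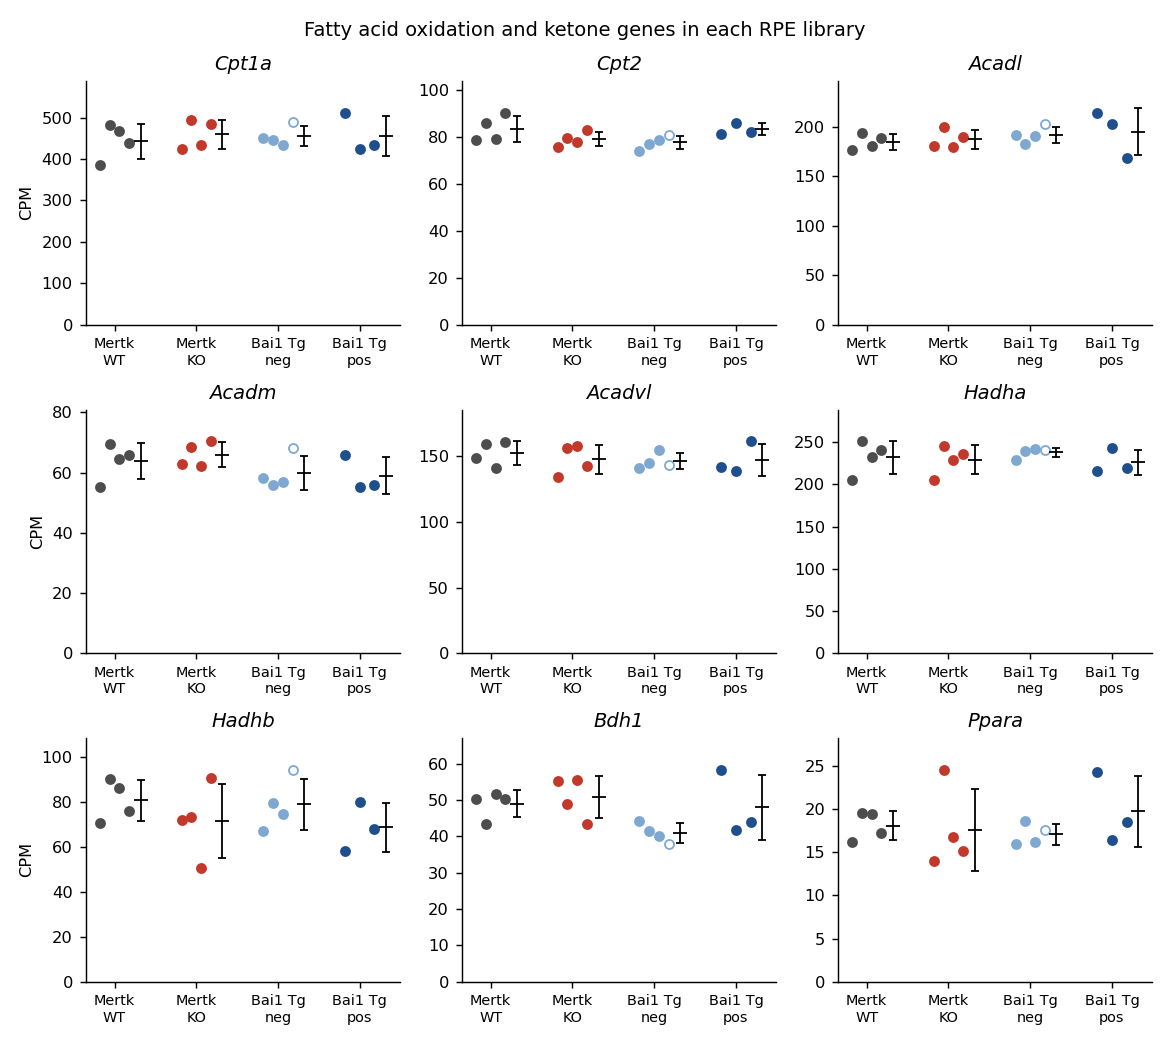
CPM of each gene (vertical axes, from 0) in every library, by group; the bar beside each group is the mean with its SD, and an open circle marks the library labelled Bai1 Tg neg 4. The groups overlap in almost every panel; Cpt2 in Bai1 Tg pos (81.5 to 86.2 CPM) lies just above Bai1 Tg neg (74.2 to 81.1 CPM).

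The 2 carnitine palmitoyltransferases place the acyl group on carnitine and take it off again. Cpt1a (ENSMUSG00000024900, chr19:3323301-3385732, plus strand in GRCm38) encodes the rate-limiting enzyme of this entry step, and it gave the most counts of the 9 genes. It stood at 385, 481, 467 and 438 CPM in Mertk WT 1 to 4 and at 423, 495, 435 and 484 CPM in Mertk KO 1 to 4. The lowest value of all 15 libraries was therefore a WT library, and the others lay side by side. The Bai1 Tg neg libraries 1 to 4 gave 451, 447, 434 and 490 CPM, and in Bai1 Tg pos 1 to 3 they were 511, 424 and 433 CPM. The log2 fold change of KO against WT was 0.049 (SE 0.087, 95% interval -0.14 to 0.24, adjusted p = 0.947 in edgeR's quasi-likelihood test), and that of Bai1 Tg pos against Bai1 Tg neg was -0.001, or 0.04 without the library labelled Bai1 Tg neg 4. On the linear scale the KO estimate is a change of 3.43%, with an interval from -9.26% to 17.9%.

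Cpt2 (ENSMUSG00000028607, chr4:107903981-107923610, minus strand) encodes the inner-membrane enzyme that restores acyl-CoA. Its values were 78.7, 86.0, 79.1 and 90.4 CPM in Mertk WT and 75.9, 79.9, 77.9 and 83.1 CPM in Mertk KO. The groups overlapped, and the KO estimate was -0.080 (SE 0.077, interval -0.25 to 0.085, adjusted p = 0.914). In Bai1 Tg neg it stood at 74.2, 77.2, 78.7 and 81.1 CPM and in Bai1 Tg pos at 81.5, 86.2 and 82.2 CPM. Of the 9 genes it was the 1 whose Bai1 groups did not overlap, a pattern that 6.28% of the 13855 genes tested there also showed. The log2 fold change of 0.10 (SE 0.075, interval -0.063 to 0.26) did not pass, with an adjusted p of 0.958 in edgeR's quasi-likelihood test, and it was 0.12 without the library labelled Bai1 Tg neg 4. The summed level of pericyte and smooth muscle markers also separated these groups, at 259 to 307 CPM in Bai1 Tg neg and 330 to 509 CPM in Bai1 Tg pos; its part in the value of Cpt2 was not tested.

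The 3 acyl-CoA dehydrogenases open the oxidation of very long, long and medium chains. Acadvl (ENSMUSG00000018574, chr11:70010183-70015411, minus strand), the very-long-chain enzyme bound to the inner membrane, stood at 149, 159, 141 and 160 CPM in Mertk WT and at 134, 156, 157 and 143 CPM in Mertk KO. Acadl (ENSMUSG00000026003, chr1:66830839-66863277, minus strand), the long-chain enzyme of the matrix, stood at 176, 193, 180 and 188 CPM in WT and at 180, 200, 179 and 190 CPM in KO. Acadm (ENSMUSG00000062908, chr3:153922357-153944632, minus strand), the medium-chain enzyme, stood at 55.3, 69.5, 64.6 and 65.8 CPM in WT and at 62.7, 68.4, 62.3 and 70.4 CPM in KO. For each of the 3 genes the KO values fell among or next to the WT values, with no library set apart in the same direction for all of them. Log2 fold changes of KO against WT were -0.052 for Acadvl (SE 0.080, interval -0.22 to 0.12), 0.018 for Acadl (SE 0.071, interval -0.13 to 0.17) and 0.043 for Acadm (SE 0.089, interval -0.15 to 0.24). Between the Bai1 groups the estimates were 0.010, 0.020 and -0.025 in the same order of genes, and 0.004, 0.05 and 0.05 without the library labelled Bai1 Tg neg 4. Acadm's sign therefore turned with that library, and none of these values passed. Acadvl shares 1151 exon bases with Dvl2, a Wnt signalling gene on the opposite strand, and the counting used no strand option, so fragments in that stretch cannot be told apart. All 15 libraries together held 8517 counts on Dvl2.

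The trifunctional protein is made from a pair of genes that lie head to head on chromosome 5. Hadha (ENSMUSG00000025745, chr5:30118304-30155162, minus strand) encodes the subunit with hydratase and dehydrogenase activity, and Hadhb (ENSMUSG00000059447, chr5:30155248-30184593, plus strand) the thiolase subunit. In the deposited annotation 85 bases separate them, and this stretch, chr5:30155163-30155247, is shown on the plus strand (RefSeq, GRCm38.p6) because both genes are read outward from it.
between Hadha and Hadhb: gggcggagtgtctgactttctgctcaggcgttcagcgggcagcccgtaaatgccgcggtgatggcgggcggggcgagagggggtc
G and C make up 69.4% of it.

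Hadha was among the steadiest of the 9 genes and Hadhb among the least steady. Hadha stood at 206, 251, 232 and 241 CPM in Mertk WT and at 205, 246, 229 and 236 CPM in Mertk KO. Hadhb stood at 70.4, 90.2, 86.0 and 76.1 CPM in WT and at 72.0, 73.0, 50.6 and 90.5 CPM in KO. Mertk KO 3 was the lowest of all libraries for Hadhb, and Mertk KO 4, in the same group, was above every WT library. In the Bai1 set Hadha ran from 216 to 243 CPM, while Hadhb ran from 58.4 CPM in Bai1 Tg pos 1 to 94.3 CPM in the library labelled Bai1 Tg neg 4. The KO estimate was -0.024 for Hadha (SE 0.085, interval -0.21 to 0.16) and -0.18 for Hadhb (SE 0.15, interval -0.51 to 0.16, adjusted p = 0.914 in edgeR's quasi-likelihood test). Hadhb thus had the estimate farthest from 0 of the 9 genes, with an interval nearly as wide as that of Ppara, and it was -0.04 without Mertk KO 3 and -0.31 without Mertk KO 4. Between the Bai1 groups Hadhb was at -0.20 (SE 0.12), or -0.10 without the library labelled Bai1 Tg neg 4 and -0.33 without Bai1 Tg pos 2. Hadha was at -0.075 there, or -0.07 without the library labelled Bai1 Tg neg 4.

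The spread of Hadhb went with that of a near-identical copy elsewhere in the genome. Gm13910, a processed pseudogene at chr2:108948806-108950233, holds 1428 bases that align to the whole Hadhb coding sequence with 99.79% identity. It differs at 3 bases, which in Hadhb lie in exons 4, 7 and 9. The 30 bases around each are shown because the 2 stretches are otherwise identical base for base. The differing base is in capitals, positions are counted from 1 at the first base of the coding sequence, and the Hadhb base comes first in each substitution (GENCODE transcripts of GRCm38).
Hadhb at G201A: cattccatttctgctGtcaggcacttcgta
Gm13910 at G201A: cattccatttctgctAtcaggcacttcgta
Hadhb at A393G: ctctgataagactccAgctcacactgtcac
Gm13910 at A393G: ctctgataagactccGgctcacactgtcac
Hadhb at G743A: atgaatatgcactgcGttctcatagtctgg
Gm13910 at G743A: atgaatatgcactgcAttctcatagtctgg
The counting command carried no option for fragments that map to more than 1 place.

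Gm13910 was at 9.19, 2.26, 6.33 and 16.8 CPM in Mertk WT 1 to 4 and at 20.7, 22.05, 27.0 and 11.7 CPM in Mertk KO 1 to 4. It was at 29.0, 11.1, 15.9 and 2.40 CPM in Bai1 Tg neg 1 to 4 and at 37.6, 21.9 and 22.2 CPM in Bai1 Tg pos 1 to 3. The 2 libraries lowest in Hadhb, Mertk KO 3 (50.6 CPM) and Bai1 Tg pos 1 (58.4 CPM), were among the 3 with the most Gm13910. Conversely, Mertk WT 2 and the library labelled Bai1 Tg neg 4 combined high Hadhb with the 2 lowest values of Gm13910. Across the 15 libraries, log2 CPM of the pair gave Pearson's r = -0.76 and Spearman's coefficient = -0.80 (permutation p = 0.00128 and 0.00045, or 0.00384 and 0.00135 adjusted over 3 relations). The r was -0.69 without the 2 libraries farthest in Gm13910 and -0.71 without the library labelled Bai1 Tg neg 4. It was -0.68 within the 8 Mertk libraries and -0.89 within the 7 Bai1 libraries. The copy was chosen after its values were seen, so the relation is a description of these libraries.

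Added together, Hadhb and Gm13910 were steadier than either. Hadhb varied 1.86-fold from lowest to highest library and Gm13910 16.7-fold, but their sum varied 1.32-fold, from 77.6 to 102 CPM. The coefficient of variation was 15.96% for Hadhb and 7.27% for the sum, a value close to the 6.18% of Hadha. Gm13910 held 2.44% to 39.2% of the sum, depending on the library. Tested as 1 gene, the sum gave a log2 fold change of 0.04 for KO against WT (SE 0.094, interval -0.17 to 0.24, adjusted p = 0.965 in edgeR's quasi-likelihood test). For Bai1 Tg pos against Bai1 Tg neg it gave 0.04 (interval -0.13 to 0.20). Both signs are opposite to those of Hadhb alone, and neither passed, so no direction can be given for Hadhb. Gm13910 by itself was at 8.65 ± 6.14 CPM in WT and 20.4 ± 6.35 CPM in KO (SD, n = 4 each), a difference that did not pass (adjusted p = 0.893), and it lies 19.7 Mb from Mertk on the same chromosome.

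**Figure D2:**
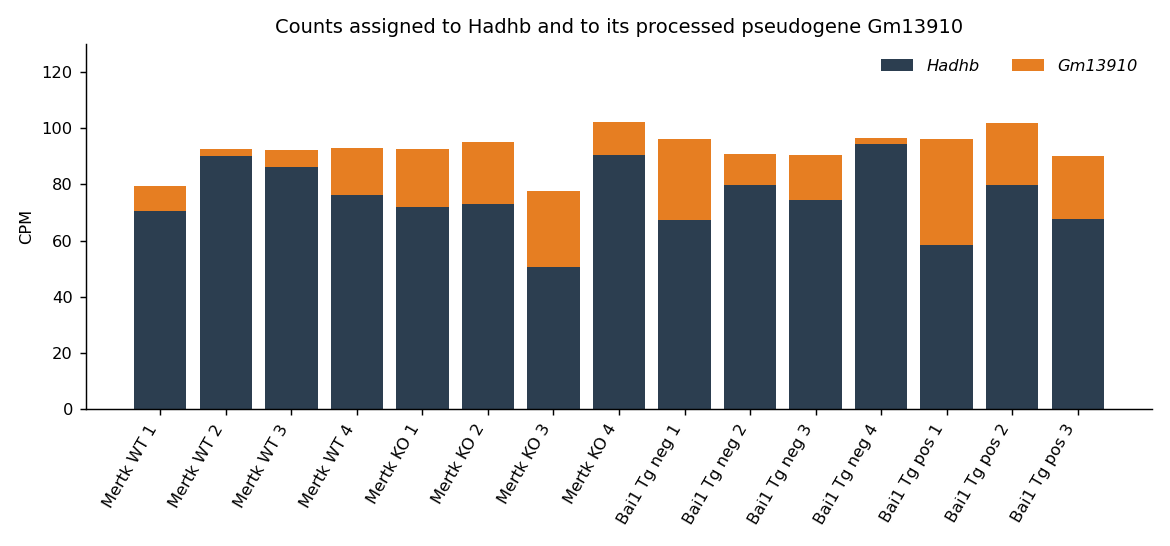
CPM (vertical axis, from 0) of Hadhb (dark) and, stacked on it, of Gm13910 (orange) in each of the 15 libraries. Hadhb alone runs from 50.6 to 94.3 CPM, while the height of the whole bar stays between 77.6 and 102 CPM.

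The ratio of Hadhb to Hadha, per kilobase of the deposited exon length, was 0.459 ± 0.031 in Mertk WT (SD, n = 4), 0.414 ± 0.094 in Mertk KO (n = 4), 0.438 ± 0.057 in Bai1 Tg neg (n = 4) and 0.400 ± 0.039 in Bai1 Tg pos (n = 3). Its lowest value was 0.293, in Mertk KO 3, the library with the lowest Hadhb. On raw counts the ratio ran from 0.221 to 0.391 over all libraries, and with the sum of Hadhb and Gm13910 in its numerator from 0.339 to 0.451. The ratio depends on the length used: the deposited lengths of 8730 and 6595 bases merge all exons of a gene, while the longest protein-coding transcripts have 4017 and 2048 bases. Fragments that fit Gm13910 as well may be missing from the Hadhb counts. The ratio therefore holds only for the fragments counted. Group differences in the ratio were within the spread of the KO libraries.

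Bdh1 (ENSMUSG00000046598, chr16:31422280-31458901, plus strand) encodes the mitochondrial beta-hydroxybutyrate dehydrogenase, which interconverts acetoacetate and beta-hydroxybutyrate. It was at 50.4, 43.4, 51.8 and 50.4 CPM in Mertk WT and at 55.3, 48.9, 55.5 and 43.5 CPM in Mertk KO. The WT values lay within the KO range except Mertk WT 2, which lay next to the lowest KO library. Its KO estimate was 0.050 (SE 0.10, interval -0.17 to 0.27, adjusted p = 0.956). In Bai1 Tg neg it was at 44.3, 41.4, 40.1 and 37.8 CPM and in Bai1 Tg pos at 58.4, 41.9 and 43.9 CPM. Bai1 Tg pos 1 held the highest value of all libraries and the library labelled Bai1 Tg neg 4 the lowest. The Bai1 Tg pos estimate was 0.23 (SE 0.12, interval -0.025 to 0.48, unadjusted p = 0.0737, adjusted p = 0.958 in edgeR's quasi-likelihood test). It was 0.19 without the library labelled Bai1 Tg neg 4, 0.07 without Bai1 Tg pos 1 and 0.31 without Bai1 Tg pos 2. Bdh1 shares 533 exon bases with Gm15743 on the opposite strand, which had 70 counts in all libraries together.

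Between the 2 control groups, both with wild-type Mertk, the estimate farthest from 0 was that of Bdh1. Bai1 Tg neg against Mertk WT gave a log2 fold change of -0.26 (SE 0.086, interval -0.45 to -0.078), which is 40.9 ± 2.74 against 49.0 ± 3.78 CPM (SD, n = 4 each). Its unadjusted p of 0.00892 became 0.334 after adjustment in edgeR's quasi-likelihood test, so it did not pass, and the groups overlapped at 1 library of each. Over all alternative fits the adjusted p ran from 0.1186, without Mertk WT 2, to 0.6347. It was the 1 gene of 9 with an unadjusted p under 0.05 in that comparison, against 7.99% of the 13459 genes tested, and the called share was 0 of 9 against 0.431%. The other 8 estimates lay between -0.10 for Cpt2 and 0.052 for Acadl, and 0 of 9 genes had groups that did not overlap, against 5.75% of all genes. Without the library labelled Bai1 Tg neg 4 the estimate of Bdh1 was -0.23, and of the other 8 Acadm was the farthest from 0, at -0.17 in place of -0.10. Hadhb went from -0.04 to -0.13 and Cpt1a from 0.04 to -0.0005. These groups also differ in the first of the 2 tag numbers in their descriptions, 12 for the former and 17 or 21 for the latter, and in rod RNA. Group, tag number and rod RNA cannot be told apart here, and this comparison shares its control libraries with the other 2.

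Ppara (ENSMUSG00000022383, chr15:85734983-85802819, plus strand) encodes the nuclear receptor, and its RNA was the least abundant of the 9. It was at 16.1, 19.5, 19.4 and 17.2 CPM in Mertk WT and at 13.98, 24.5, 16.7 and 15.2 CPM in Mertk KO. A single KO library, Mertk KO 2, lay above WT and another 2 below it. The KO estimate was -0.045 (SE 0.17, interval -0.41 to 0.32, adjusted p = 0.98 in edgeR's quasi-likelihood test), the widest interval of the 9 genes, and it was -0.24 without Mertk KO 2. In the Bai1 set it ran from 15.97 to 18.6 CPM in Bai1 Tg neg and was at 24.3, 16.4 and 18.4 CPM in Bai1 Tg pos. That estimate was 0.20 (SE 0.15, interval -0.13 to 0.52) and did not pass. It was 0.21 without the library labelled Bai1 Tg neg 4, 0.03 without Bai1 Tg pos 1 and 0.31 without Bai1 Tg pos 2. High Ppara in Bai1 Tg pos 1 came with the highest Cpt1a, Acadl and Bdh1 of all libraries.

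**Figure D3:**
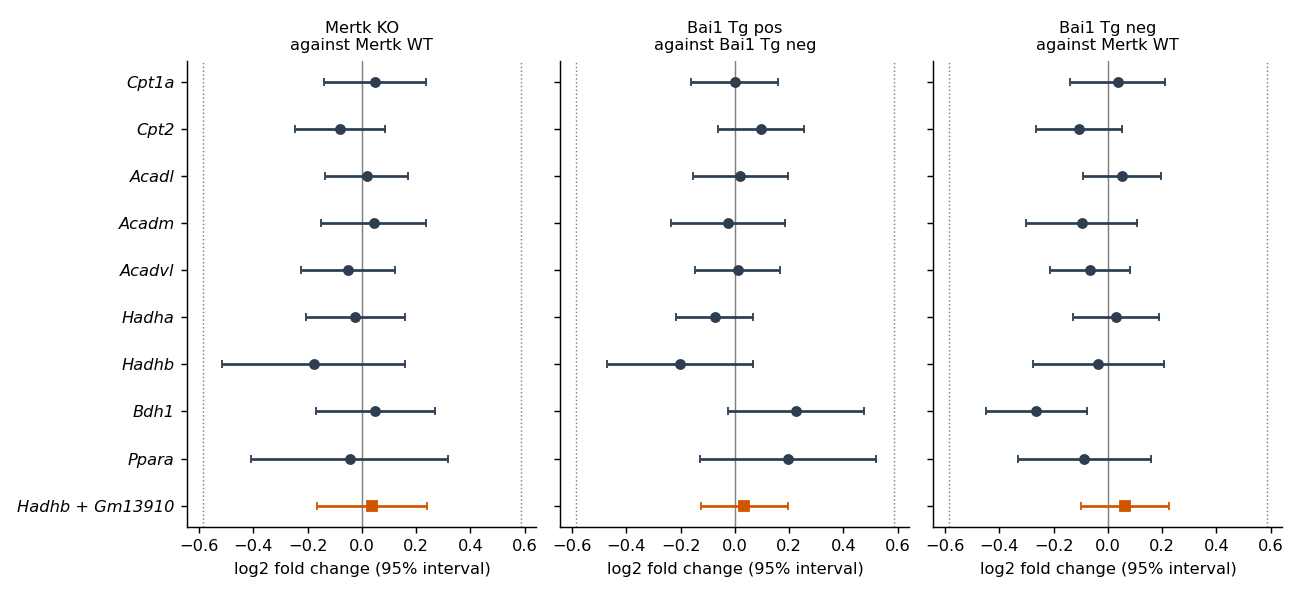
Log2 fold change (horizontal axis) with its 95% interval for the 9 genes (circles) and for Hadhb and Gm13910 summed (orange squares) in 3 comparisons; dotted lines mark 1.5-fold. Every interval lies within 1.5-fold, and among the circles and squares only Bdh1 in Bai1 Tg neg against Mertk WT has an interval that leaves out 0.

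Between the Bai1 groups 0 of 9 genes passed, where 0.0144% of all genes did, and adjusted p-values ran from 0.958 to 0.998 in edgeR's quasi-likelihood test. At an unadjusted p under 0.05 the count was 0 of 9 against 5.18%, and DESeq2 called 0 of 9. Estimates were above 0 for 5 genes and below 0 for 4. The interval lay within 1.25-fold for 6 of 9 genes, against 31.8% of all genes, and within 1.5-fold for 9 of 9, against 59.6%. Without the library labelled Bai1 Tg neg 4 the count that passed was again 0. In Bai1 Tg neg against Mertk WT, 7 of 9 intervals lay within 1.25-fold, against 34.6%, and 9 of 9 within 1.5-fold, against 66.3%. These shares over all genes were not matched for counts either.

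Per kilobase of transcript, Cpt1a, Acadl and Acadvl led. Divided by the deposited exon length, mean levels over all 15 libraries were 105 CPM per kilobase for Cpt1a, 94.4 for Acadl, 55.2 for Acadvl, 33.8 for Cpt2 and 26.6 for Hadha. Then followed Acadm at 15.9, Bdh1 at 12.4, Hadhb at 11.4 and Ppara at 4.69 CPM per kilobase. Neighbours in this order had separate ranges except Cpt1a and Acadl, Acadm and Bdh1, and Bdh1 and Hadhb. The coding sequence of Hadhb is nearly identical to Gm13910, and the counting used no multi-mapping option. Hadhb may thus be undercounted, and its place holds only for the fragments counted. With the longest protein-coding transcript of GENCODE M21 as the length, Hadha was at 57.7, Hadhb at 36.8 and Acadm at 30.5 CPM per kilobase. That moved Hadha from the fifth place to the fourth and Hadhb from the eighth to the fifth, while Cpt2, at 34.1, fell to the sixth; Cpt1a, Acadl and Acadvl stayed the leading 3 and Ppara the last.

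Variation between libraries was small for most of the 9 genes. The coefficient of variation over the 15 libraries was 5.31% for Cpt2, 6.08% for Acadvl, 6.18% for Hadha, 6.30% for Acadl, 7.52% for Cpt1a and 9.08% for Acadm. These 6 lay under 11.3%, the median of the 8771 genes with a mean above 10 CPM. Bdh1 at 13.3%, Hadhb at 15.96% and Ppara at 16.7% lay above it. Ppara had the fewest counts, and the coding sequence of Hadhb is nearly identical to Gm13910. What sets the spread of Bdh1, Hadhb and Ppara was not tested.

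Among the 36 pairs of the 9 genes, levels in the 15 libraries were related past the threshold in 1, Cpt1a with Acadm. Pearson's r on log2 CPM was above 0 for 26 of the 36, and 1 passed after adjustment over the 36. Cpt1a and Acadm gave Pearson's r = 0.76 and Spearman's coefficient = 0.78 (permutation p = 0.00106 and 0.00089, adjusted 0.0382 and 0.0320). Pearson's r was 0.76 without the 2 libraries farthest in Cpt1a, 0.69 without the 2 farthest in Acadm and 0.74 without the library labelled Bai1 Tg neg 4. Within the 8 Mertk libraries r was 0.94. The value within the 7 Bai1 libraries was also 0.94, or 0.97 without the library labelled Bai1 Tg neg 4 and 0.95 without Bai1 Tg pos 1. The next pairs were Cpt1a with Acadl (r = 0.65), Cpt1a with Ppara (0.64) and Hadhb with Bdh1 (-0.64), each with an adjusted permutation p of 0.09. All 3 came closer to 0 without the 2 libraries farthest in one of the genes: Cpt1a with Acadl to 0.46 (farthest in Cpt1a), Cpt1a with Ppara to 0.36 (in Ppara) and Hadhb with Bdh1 to -0.38 (in Hadhb).

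**Figure D4:**
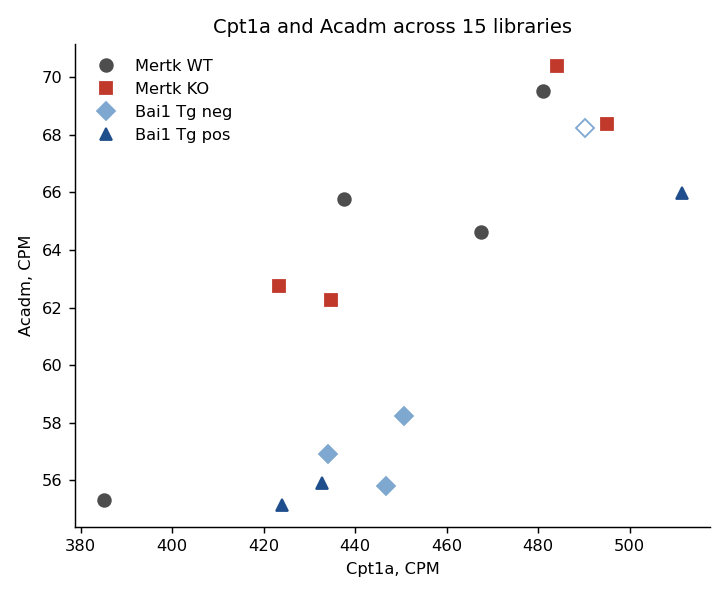
CPM of Cpt1a (horizontal axis) and Acadm (vertical axis) in the 15 libraries, by group; neither axis starts at 0, and the open diamond is the library labelled Bai1 Tg neg 4. Libraries low in one gene tend to be low in the other (r = 0.76 on log2 CPM), and Mertk WT and Mertk KO libraries are mixed along the trend.

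Each gene was also set against the mean of the other 8, all scaled to their own spread and centred within the Mertk and Bai1 sets. As a description over the 15 libraries, r was 0.76 for Cpt1a, 0.72 for Acadm, 0.61 for Acadl and 0.58 for Ppara. It was 0.51 for Hadha, 0.44 for Cpt2, 0.10 for Hadhb, 0.077 for Acadvl and -0.32 for Bdh1. Among 8762 genes outside the 9, the 5 with the highest r with the mean of all 9 were Reep5 (0.83), Cldn1 (0.82), Cdh2 (0.81), Man1b1 (0.79) and Spats2l (0.79). These are the top of a long ranking, so their r is a description of likeness only.

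Short sequence motifs were looked for in the promoters, from 250 bases before to 50 after each RefSeq start, since Ppara and related receptors bind copies of AGGTCA. RefSeq gave 10 promoters for the 9 genes, Bdh1 having 2. The direct repeat AGGTCANAGGTCA was in 0 of the 10 and, over both strands, in 0.0396% of 32851 promoters. TCAAGGTCA, the form bound by estrogen-related receptors, was in 0 of 10 and in 0.423% of all. The single unit AGGTCA, which both longer motifs contain, was in 3 of 10 promoters, those of Cpt1a, Acadm and Acadvl, and in 16.3% of all. The 30 bases that hold it are shown in the direction of the gene with that unit in capitals (TGACCT on the opposite strand), because Cpt1a and Acadm were the pair that varied together.
Cpt1a, chr19:3323195-3323224: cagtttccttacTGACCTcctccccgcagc
Acadm, chr3:153944864-153944893: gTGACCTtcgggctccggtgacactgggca
Acadvl, chr11:70015498-70015527: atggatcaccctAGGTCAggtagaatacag
The match began 94 bases before the start in Cpt1a, 249 in Acadm and 87 in Acadvl. Such a match is a description of these letters, not a binding site.

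The rest of the pathway was read from 7 lists with 137 distinct genes, of which 111 were tested in Mertk KO against Mertk WT. None of the 111 passed, with a lowest adjusted p of 0.497 in edgeR's quasi-likelihood test. An unadjusted p under 0.05 was reached by 6.31% of them, against 5.58% of all genes. Of the 111 estimates 49 were above 0 and 62 below, with a median of -0.02, beside a median of -0.001 over all genes. The 9 genes themselves had a median of -0.02.

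Among other mitochondrial beta-oxidation genes, 0 of 26 tested passed, 8 estimates were above 0 and the median was -0.07. The most abundant per kilobase were Etfb, which takes electrons from the dehydrogenases (265 ± 17.5 CPM in WT, 285 ± 27.5 in KO, SD, n = 4 each), and Eci1, an enoyl-CoA isomerase (159 ± 9.17 and 173 ± 15.1 CPM). Acaa2, the matrix thiolase of shorter chains, had the smallest p of the list, with 241 ± 14.2 CPM in WT and 214 ± 19.6 in KO and an adjusted p of 0.893 in edgeR's quasi-likelihood test. Of the ketogenesis and ketone use list, 0 of 12 passed and the median was -0.003. Its most abundant genes per kilobase were Bsg, the chaperone of monocarboxylate transporters (5293 ± 269 CPM in WT, 5305 ± 560 in KO), and Slc16a8, a transporter typical of the RPE (1700 ± 592 and 2151 ± 381 CPM). Slc16a1, a monocarboxylate transporter that carries ketone bodies as well as lactate, had 1256, 1521, 1296 and 1394 CPM in WT and 1221, 1135, 1180 and 1115 CPM in KO. All 4 KO libraries were below all 4 WT libraries, and such a lack of overlap, in either direction, was seen for 3.55% of all genes. Its log2 fold change of -0.24 (SE 0.077) had an unadjusted p of 0.00922 and an adjusted p of 0.579 in edgeR's quasi-likelihood test, so it did not pass.

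Of all 14 tested Ppara targets outside the 9 genes, 0 passed, 4 estimates were above 0 and the median was -0.06. Angptl4, a secreted inhibitor of lipoprotein lipase, had the smallest p of the list, with 72.7, 94.9, 83.4 and 111 CPM in WT and 57.2, 80.3, 67.3 and 75.4 CPM in KO. Its ranges overlapped, and its log2 fold change of -0.37 (SE 0.14) had an adjusted p of 0.744.

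Peroxisomal genes (0 of 18 passed, median 0.001) included Scp2, a sterol carrier with thiolase activity (273 ± 39.6 CPM in WT, 237 ± 17.4 in KO, SD, n = 4 each). The genes that set malonyl-CoA, the inhibitor of Cpt1a, and its kinase AMPK gave 0 of 12 and a median of -0.02. In that list Prkab1, an AMPK subunit, was at 80.1 ± 2.97 and 74.4 ± 3.23 CPM, and Fasn, the fatty acid synthase, at 184 ± 30.1 and 205 ± 27.6 CPM. Prkag3, an AMPK subunit known from skeletal muscle, had the smallest p, at 1.24 to 2.51 CPM in WT and 0.48 to 0.74 CPM in KO (log2 fold change -1.31, SE 0.40, adjusted p = 0.497), but it held 230 counts in all 15 libraries together.

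Uptake, binding, storage and release of fatty acids gave 0 of 18, with 11 estimates above 0 and a median of 0.12. Its most abundant genes per kilobase were Mgll, the monoacylglycerol lipase (654 ± 39.1 CPM in WT, 716 ± 47.3 in KO, SD, n = 4 each), and Slc27a1, a fatty acid transport protein (300 ± 81.7 and 323 ± 31.1 CPM). Pnpla2, the triglyceride lipase of lipid droplets, had the smallest p, with 46.8 ± 6.49 and 54.9 ± 4.95 CPM and an adjusted p of 0.893 in edgeR's quasi-likelihood test. Of the Ppara partners and co-regulators, 0 of 19 passed, with a median of -0.04. Hnf4a, a nuclear receptor of lipid metabolism, was among the 2 most abundant per kilobase and had the smallest p. It was at 96.6 ± 2.25 CPM in WT and 84.4 ± 3.85 in KO. The groups did not overlap (94.5 to 99.0 CPM in WT, 78.7 to 87.4 in KO), as for 3.55% of all genes. Hnf4a had an unadjusted p of 0.0151 and an adjusted p of 0.688 in edgeR's quasi-likelihood test, so it did not pass.

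**Figure D5:**
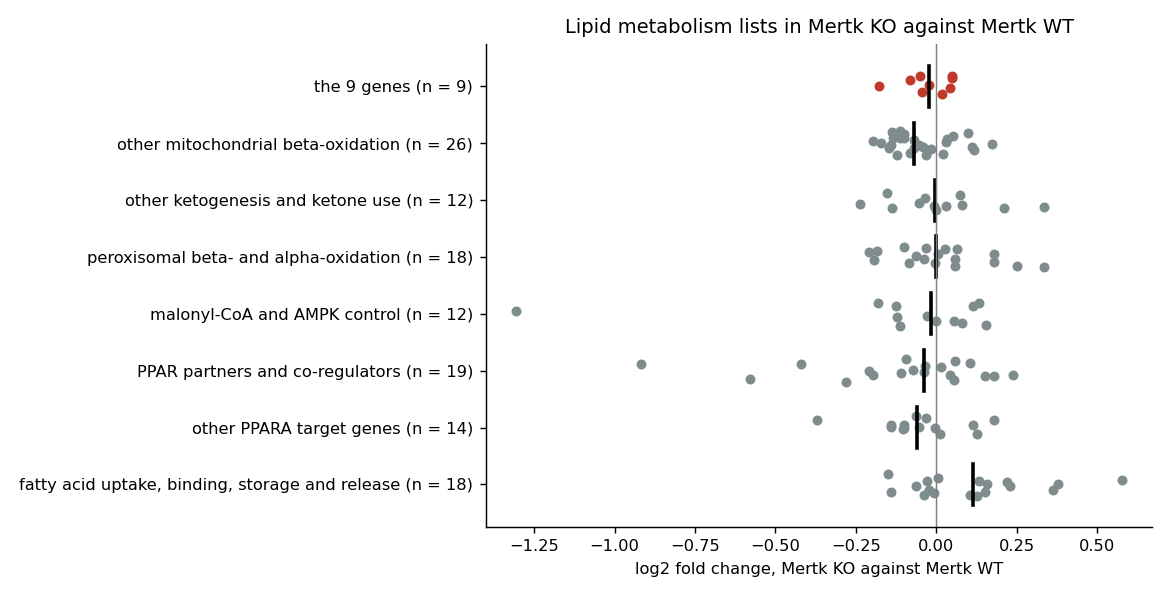
Log2 fold change of Mertk KO against Mertk WT (horizontal axis) for each tested gene of the 9 genes (red) and of 7 pathway lists (grey); vertical ticks are medians, the vertical scatter carries no value, and some genes stand in more than 1 list. No point passed the threshold; the medians lie between -0.07 and 0.12.

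In the other comparisons 1 gene of the 7 lists passed. Between Bai1 Tg pos and Bai1 Tg neg it was 0 of 113 genes, with a lowest adjusted p of 0.719 in edgeR's quasi-likelihood test. In Bai1 Tg neg against Mertk WT it was 1 of 110, Esrrb, an estrogen-related receptor. Esrrb was at 5.13, 16.4, 16.4 and 6.37 CPM in Mertk WT 1 to 4 and at 0.85, 1.00, 2.21 and 1.05 CPM in Bai1 Tg neg 1 to 4. The groups did not overlap, and the log2 fold change was -3.14 (adjusted p = 0.0323). The call was lost without Bai1 Tg neg 1 (adjusted p = 0.1404), 2 (0.157) or the library labelled Bai1 Tg neg 4 (0.132), with no low-count filter (0.1215) and in limma-voom (0.0854). The 2 WT libraries with the most Esrrb, Mertk WT 2 and 3, also had the highest rod marker level, and 21 of 21 rod markers had estimates below 0 in this comparison, with a median of -3.39. The part of rod RNA in the value of Esrrb was not tested.

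Markers of other cell types were read beside the Mertk and Bai1 comparisons. Of the 21 rod markers 20 had estimates below 0 in Mertk KO, with a median of -0.59, and 0 passed. Their levels overlapped between the groups. The mean log2 level of the rod list was 6.66 and 6.34 in Mertk WT 2 and 3. It was 4.73 and 5.03 in Mertk WT 1 and 4, and 4.82 to 5.52 in KO. With the mean log2 level of the rod list as a covariate, 0 of the 9 genes passed, and the estimates of Hadha and Ppara went to 0.005 and 0.02. Endothelial markers, led by Ramp2 and Kdr, had 4 of 4 tested estimates below 0 in KO (median -0.47). Their summed level was 128 to 213 CPM in WT and 102 to 165 in KO. Ramp2 alone made up most of that, at 115 to 196 CPM in WT and 92.4 to 153 in KO. Counts in every library were found for 4 of the 10 endothelial markers. Macrophage markers, led by Csf1r and Cd68, summed to 637 to 707 CPM in WT and 660 to 743 in KO. Csf1r alone made up most of that, at 631 to 700 CPM in WT and 652 to 735 in KO. Cd68 was at 4.80 to 8.11 CPM in WT, and 2 of the 11 markers had counts in every library. Pericyte and smooth muscle markers, led by Acta2 and Cspg4, summed to 300.4 to 332 CPM in WT and 306 to 377 in KO. The cone list (Gnat2 and Pde6c) summed to 43.4 to 81.2 and 42.1 to 69.1 CPM, and the Mueller glia list (Apoe and Rlbp1, genes the RPE also expresses) to 13916 to 16001 and 13790 to 17164 CPM. Erythroid markers (Hbb-bs and Hba-a1) summed to at most 6.46 CPM. Between the Bai1 groups, 5 of 6 tested pericyte and smooth muscle markers had estimates above 0, with a median of 0.42, and 0 passed. Acta2, a smooth muscle actin, was at 163, 167, 198 and 198 CPM in Bai1 Tg neg 1 to 4 and at 242, 283 and 209 CPM in Bai1 Tg pos 1 to 3, with a log2 fold change of 0.43 (SE 0.11). Myh11, a smooth muscle myosin named after its values were seen, was at most 1.30 CPM in Bai1 Tg neg and at 28.4, 97.1 and 0.376 CPM in Bai1 Tg pos. Rod markers had 20 of 21 estimates above 0 there (median 0.89), with summed levels that overlapped, and 0 passed. The part of these other cell types in the levels of the 9 genes was not tested, apart from the rod covariate.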

How the data were processed

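The authors deposited 1 table of raw counts of fragments per gene for 46078 Ensembl genes in 15 libraries. Libraries were made with the TruSeq kit from poly-A RNA, per the labels' protocols. Alignment used STAR and GRCm38, per the submitters' processing notes, and fragments were counted with featureCounts 1.5.0 over exons, both ends mapped, with neither a strand nor a multi-mapping option, per the file headers. Neither the STAR version nor the annotation release is stated in the sources used here. Ensembl identifiers gave a symbol for 45143 genes (99.91% of counts), and member coordinates are those of the deposited table.

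CPM were computed with TMM factors over all libraries. Comparisons used edgeR 4.0.16 (TMM, filterByExpr, robust quasi-likelihood F test, two-sided, R 4.3.3) on the libraries compared, with Benjamini-Hochberg adjustment over all genes tested and a threshold of 0.05; adjusted p-values in the text are from this test unless another tool is named. Scripts were tested on simulated data. Near-identical transcripts were found with blastn 2.17.0 (at least 95% identity over 150 bases), and motifs in RefSeq promoters. Correlations used log2 CPM and 100000 permutations. Libraries of 1 group never agreed within sampling noise (lowest chi-square per degree of freedom 5.03), so none were merged and each counts once. Such a spread cannot show that they come from separate animals.

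The 9 genes, the lists and the tests were chosen with earlier results of these data known. Named genes were the 9; in each other pathway list every gene past the threshold, the 2 most abundant per kilobase and the 1 of smallest p in Mertk KO against Mertk WT; the 1 or 2 most abundant of each marker list; the 5 most alike genes; and Mertk and Adgrb1. Gm13910, Dvl2 and Gm15743 fall outside that rule, and some genes it takes are not reported here. Alternatives were DESeq2 1.42.0, RLE size factors, leaving the low-count filter out, all libraries in 1 fit, limma-voom (limma 3.58.1), the replicate number as a block, tag number or rod level as a covariate and leaving out each library; summing Hadhb with Gm13910, keeping only libraries with first tag number 17, and the transcript length were added after seeing the data.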

Additional observations from a re-analysis of the deposited data

Results flagged for a closer look

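A total of 30 groups of 4 libraries were checked for 1 value far from the others, of which chance alone flags about 1 in 20. Hadha in Bai1 Tg neg 1 stood at 229 CPM while the other 3 libraries of that group lay between 239.8 and 241.7 CPM. Bdh1 in Mertk WT 2 stood at 43.4 CPM while the other 3 WT libraries lay between 50.4 and 51.8 CPM. Mertk WT 2 also had the highest rod marker level of the 15 libraries, and without it the unadjusted p of Bdh1 in Bai1 Tg neg against Mertk WT was 0.001629 in edgeR's quasi-likelihood test (adjusted 0.1186).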

How the results depend on the processing

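In every fit run, 0 of the 9 genes passed in any of the 3 comparisons; the lowest adjusted p-values were 0.7125 for Mertk KO against Mertk WT, 0.4557 for Bai1 Tg pos against Bai1 Tg neg and 0.1186 for Bai1 Tg neg against Mertk WT (Bdh1, without Mertk WT 2). Where a sign turned, the estimate was close to 0 or the gene was Hadhb, and the cause was not tested except where the setting itself changes what is counted.

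Counts over all genes moved more. Mertk KO against Mertk WT gave 30 calls, 77 with DESeq2, 69 with no low-count filter, 14 with only libraries of first tag number 17, and 16 to 31 without 1 library. Bai1 Tg pos against Bai1 Tg neg gave 2, and 26 with DESeq2, 85 with no filter, 0 with all libraries in 1 fit and in limma-voom, 1 with the rod covariate and 0 to 54 without 1 library. Bai1 Tg neg against Mertk WT gave 58, and 249 with DESeq2, 138 with no filter and 13 to 89 without 1 library. The replicate number as a block gave 24, 4 and 106 calls in the same order and none among the 9 genes; same-numbered libraries did not deviate together (correlations of -0.11 to 0.24 for Mertk and -0.04 to 0.01 for Bai1), so the numbers were not taken as pairs.

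Signs that turned in Mertk KO against Mertk WT were those of Hadha (0.005) and Ppara (0.02) with the rod covariate, Hadhb (0.04) summed with Gm13910, Bdh1 (-0.01) in limma-voom and Ppara (0.002) with first tag number 17. Without 1 library, Cpt1a ran from -0.01 to 0.09, Acadl from -0.01 to 0.04, Acadm from -0.02 to 0.09, Hadha from -0.08 to 0.03, Bdh1 from -0.005 to 0.12 and Ppara from -0.24 to 0.05. In Bai1 Tg pos against Bai1 Tg neg they were Cpt1a (0.002 in DESeq2, 0.003 with RLE size factors, 0.001 with all libraries, 0.03 with the block, 0.004 with the rod covariate), Acadl (-0.04, rod covariate), Acadm (0.04, block), Acadvl (-0.01, limma-voom) and Hadhb (0.04, summed). Without 1 library, Cpt1a ran from -0.09 to 0.05, Acadl from -0.05 to 0.12, Acadm from -0.11 to 0.05 and Acadvl from -0.06 to 0.05. In Bai1 Tg neg against Mertk WT Hadhb was at 0.06 when summed, and without 1 library Cpt1a ran from -0.03 to 0.08, Hadha from -0.03 to 0.07 and Hadhb from -0.13 to 0.03.

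The Hadhb to Hadha ratio, 0.430 over all libraries, was 0.325 on raw counts, 0.637 with transcript lengths and 0.529 with Gm13910 added. CPM without TMM factors moved every group mean of the 9 genes by less than its SD. Depth limits Ppara most, with 165 to 366 counts per library.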
